A study of Mus musculus with 44 samples.

Results

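Organoids grown from mouse small intestine were compared with mouse stomach organoids that carried lentiviral GFP, across all genes of a table of raw read counts. The members of the comparison are the libraries labelled as one or the other of these lines: 2 small intestine libraries and 3 GFP gastric libraries, which makes 5 of the 44 samples of the series. All genes of the table were used and no measured value chose the libraries.

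An organoid is a culture of epithelium that grows in a gel and renews itself from its own stem cells. The small intestine group has lines 1 and 2 of C57BL/6 small intestine organoids, and the labels name no transgene for them. The GFP group has lines 1, 2 and 3 of C57BL/6 gastric organoids transduced with a lentivirus carrying GFP, a product chosen as neutral. Tissue of origin and lentiviral transduction therefore cannot be told apart in this comparison. The same study made gastric lines with lentiviral CDX2 (3 libraries) or HNF4A (3 libraries), on the same strain and by the same transduction. These 6 libraries shared the estimate of the spread, and their values stand beside the 5 where they help. For the GFP libraries one label field names small intestine organoids while the tissue field says gastric, as do the study's design and the line titles. The tissue field was followed, and the stomach genes read in these libraries are given below. The age and sex of the animals, the part of the small intestine, the culture medium and the number of passages were not stated in the labels used here. Nothing says that lines of a group came from separate animals, so p-values measure the spread between these libraries, which may be technical.

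The stomach and the small intestine are neighbouring stretches of one gut tube, and each is lined by a single layer of epithelial cells. Stomach glands secrete mucus, digestive enzymes and antimicrobial proteins, under transcription factors such as SOX2 and NKX6-3. The small intestine absorbs nutrients through enterocytes, whose apical brush border carries digestive enzymes and transporters. CDX1 and CDX2, homeodomain factors, set intestinal identity, and HNF4A and HNF4G, nuclear receptors for fatty acids, drive the enterocyte programme. Organoid cultures contain mainly epithelium, so both programmes can be read in bulk RNA.

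Total counts ran from 9209891 to 11007809 in the small intestine libraries and from 7776648 to 9497363 in the GFP libraries. Levels are given as CPM, counts per 1000000 after scaling for library composition, and 3 counts in a library equal 0.279 to 0.367 CPM. General epithelial genes were high in both groups. Epcam, a cell adhesion molecule of epithelia, was at 894 and 1323 CPM in small intestine organoids and at 889.7, 1069 and 848 CPM in GFP organoids. Of 12 fibroblast markers 5 were abundant enough to test, 1 of them lower and 0 higher, with a median log2 fold change of -2.52. Only 2 of the 12, Lum and Thy1, had 0 counts in all 5 libraries. The list summed to 5.87 and 30.9 CPM in small intestine organoids and to 298 to 1839 CPM in GFP organoids. Nearly all of the GFP sum was Fn1, fibronectin, at 0.931 and 27.0 CPM in small intestine organoids against 289.8, 683 and 1818 CPM in GFP organoids. Fn1 was called lower (log2 fold change -6.07 ± 1.67 SE, adjusted p = 0.0246), and its adjusted p was 0.0509 without GFP library 3 and 0.123 without small intestine library 1, while its log2 fold change was -9.94 without small intestine library 2. Of the 12 immune markers 4 were tested, 1 higher and 2 lower, and the list summed to 35.1 and 45.5 CPM in small intestine organoids and to 165, 149.8 and 90.2 CPM in GFP organoids. Most of each sum came from Cd14, a receptor for bacterial lipopolysaccharide, at 20.1 and 27.5 CPM in small intestine organoids against 100.2, 55.6 and 69.3 CPM in GFP organoids (log2 fold change -1.66 ± 0.27 SE, adjusted p = 0.00381), and from Cd68, a lysosomal protein of macrophages, at 13.2 and 12.2 CPM against 63.8, 91.8 and 20.1 CPM (adjusted p = 0.0452). The call for Cd68 was lost without GFP library 1 or 2 (adjusted p = 0.0813 and 0.119) or small intestine library 1 or 2 (0.203 and 0.156). Itgam, an integrin of myeloid cells, was the higher member, at 0.559 and 3.40 CPM against 0 counts in each GFP library (adjusted p = 0.0313, and 0.0631 to 0.134 on leaving out any single library). Ptprc, the defining marker of leukocytes, reached at most 0.219 CPM in the 5 libraries. Of the 8 endothelial markers 3 were tested and 0 called, and only 2, Kdr and Emcn, were at 0 in all 5 libraries. The list, mostly Esam, summed to 14.2 and 15.1 CPM in small intestine organoids and to 34.8, 40.3 and 19.6 CPM in GFP organoids. The part of such cells in the results was not tested.

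A gene is called when its adjusted p (edgeR quasi-likelihood test, Benjamini-Hochberg over 12720 tested genes) is under 0.05. The small intestine and GFP organoids differed at 3448 genes, 27.1% of those tested. In small intestine organoids 1806 were higher (14.2%) and 1642 lower (12.9%), and the median log2 fold change over all tested genes was -0.01. Over 8-fold differences were more often losses: 553 of the lower genes and 271 of the higher genes differed by over 8-fold, while 317 lower and 687 higher genes differed by under 2-fold. For 7546 genes (59.3%) the levels of the 2 groups did not overlap. The counts depended on which libraries were in the fit. Without small intestine library 1, 423 genes were called higher and 409 lower, and without library 2, 1354 and 1249. Leaving out GFP library 1, 2 or 3 gave 1356, 1093 or 1224 higher and 1333, 1104 or 1190 lower genes. There were 351 higher and 367 lower genes that remained called whichever of the 5 libraries was left out, and most genes named below are among them. For named genes outside that core the libraries whose absence ends the call are given.

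**Figure D1:**
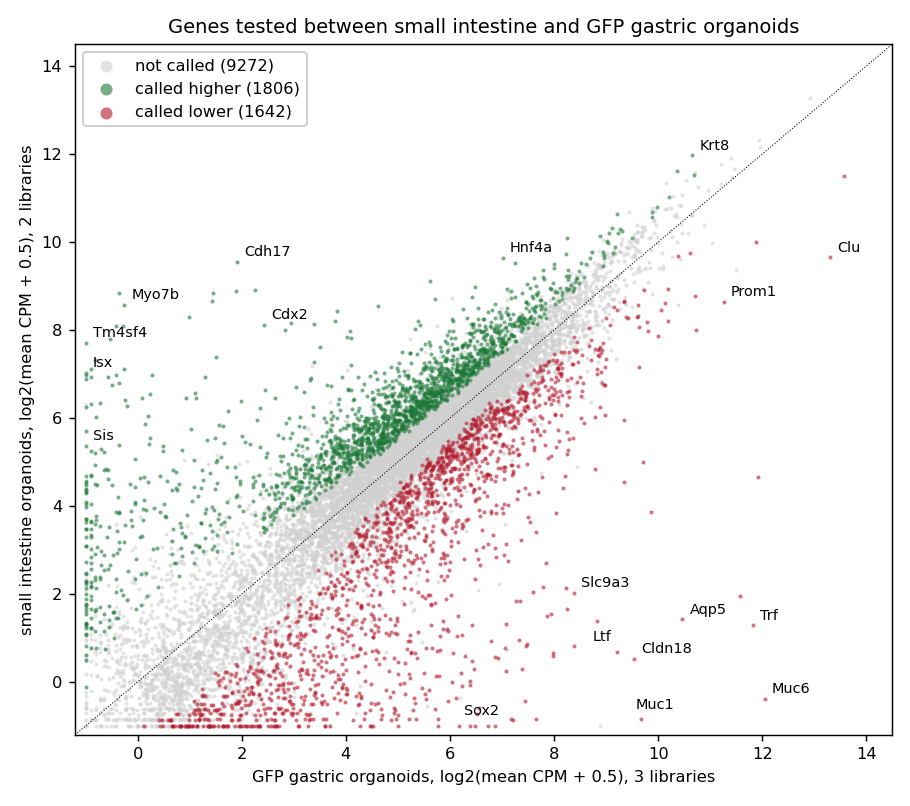
Mean level of each of the 12720 tested genes in 2 small intestine libraries (vertical axis) and 3 GFP gastric libraries (horizontal axis), both as log2(CPM + 0.5); the dotted line marks equal levels. Green points are the 1806 genes called higher in small intestine organoids and red points the 1642 called lower; Muc1, Muc6, Trf and Cldn18 lie at the lower right, and Myo7b, Cdh17, Tm4sf4 and Isx at the upper left.

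Because the comparison turns on genes that were read in one tissue and nearly absent in the other, the upstream sequence of some of them is shown with the short motifs that HNF4 and CDX factors are known to bind. The sequences are the 250 bases before the annotated start of the gene, on the strand of the gene, from RefSeq (mouse build GRCm38.p6); capitals mark matches. Anks4b, Fabp2 and Abcb1a are enterocyte genes with the HNF4 motif CAAAGTNCA, read on either strand.
Anks4b, chr7:120173608-120173857, plus strand, match 51 bases before the start: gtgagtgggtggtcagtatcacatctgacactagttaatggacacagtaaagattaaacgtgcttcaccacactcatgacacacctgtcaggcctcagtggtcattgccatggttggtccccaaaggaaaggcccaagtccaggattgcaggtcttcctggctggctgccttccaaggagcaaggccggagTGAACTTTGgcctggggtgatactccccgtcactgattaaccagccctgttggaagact
Fabp2, chr3:122894822-122895071, plus strand, match 129 bases before the start: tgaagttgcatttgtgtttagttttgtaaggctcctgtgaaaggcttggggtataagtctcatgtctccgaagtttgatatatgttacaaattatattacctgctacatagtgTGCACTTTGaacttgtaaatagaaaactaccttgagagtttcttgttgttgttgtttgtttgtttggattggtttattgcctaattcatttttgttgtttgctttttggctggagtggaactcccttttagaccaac
Abcb1a, chr5:8566841-8567090, plus strand, match 171 bases before the start: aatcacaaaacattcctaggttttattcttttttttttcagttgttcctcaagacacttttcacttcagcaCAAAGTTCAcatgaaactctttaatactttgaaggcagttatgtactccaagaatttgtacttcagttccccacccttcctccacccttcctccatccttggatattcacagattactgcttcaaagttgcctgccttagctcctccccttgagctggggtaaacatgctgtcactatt

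Sis and Tm4sf4, both read in small intestine organoids and at 0 in GFP organoids, are shown with the CDX motif TTTATNG. Reg3g is shown because its letters match that motif at 2 places and it was lower, not higher, in small intestine organoids. Its match 22 bases before the start, CTATAAA, also holds the letters TATAAA of a TATA box, so it may not be a CDX motif.
Sis, chr3:72967864-72968113, minus strand, match 46 bases before the start: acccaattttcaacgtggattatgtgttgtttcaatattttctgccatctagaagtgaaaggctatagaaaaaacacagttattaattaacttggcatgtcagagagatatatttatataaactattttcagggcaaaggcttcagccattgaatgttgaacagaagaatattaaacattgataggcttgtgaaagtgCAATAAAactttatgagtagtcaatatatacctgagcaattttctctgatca
Tm4sf4, chr3:57425160-57425409, plus strand, match 40 bases before the start: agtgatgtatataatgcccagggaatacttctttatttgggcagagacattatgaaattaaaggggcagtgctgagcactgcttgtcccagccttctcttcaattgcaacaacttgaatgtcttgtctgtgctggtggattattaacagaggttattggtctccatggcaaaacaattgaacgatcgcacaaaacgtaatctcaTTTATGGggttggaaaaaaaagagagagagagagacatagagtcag
Reg3g, chr6:78468875-78469124, minus strand, matches 155 and 22 bases before the start: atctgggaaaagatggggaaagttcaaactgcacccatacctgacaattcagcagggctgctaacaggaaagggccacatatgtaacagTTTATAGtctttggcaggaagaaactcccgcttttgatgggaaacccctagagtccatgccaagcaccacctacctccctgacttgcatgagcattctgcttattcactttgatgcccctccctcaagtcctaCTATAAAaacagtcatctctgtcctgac

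Of the 12720 tested genes 9767 had an upstream entry. The HNF4 motif was present upstream of 13 of 201 genes called over 8-fold higher in small intestine organoids (6.47%), of 1 of 373 called over 8-fold lower (0.268%) and of 106 of all 9767 (1.09%). The CDX motif was present upstream of 26 (12.9%), 30 (8.04%) and 626 (6.41%) of these genes. The GATA motif AGATAAG was upstream of 5.47%, 2.14% and 1.73%, and the SOX motif ACAATGG upstream of 1.99%, 3.75% and 1.66%. The median GC content of the same windows was 55.2%, 58.8% and 60%. Over all called genes with an upstream entry, whatever their fold, the shares lay nearer those of all genes. The HNF4 motif was upstream of 1.71% of 1407 higher and 0.412% of 1214 lower genes, and the CDX motif of 7.04% and 6.18%. These shares describe letters in short windows and were not tested. A match is not a bound site, and the part of GC content in the shares was not tested.

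Transcription factors of intestinal identity were mostly higher in small intestine organoids. Of 22 tested, 15 were higher and 2 lower, with a median log2 fold change of 2.51 against -0.01 for all tested genes. Of these calls 8 higher and 0 lower remained whichever library was left out. The median was 2.78 without small intestine library 1 and 1.94 without library 2. Cdx2, at chromosome 5, 147300900 to 147307249 (GRCm38.p6), was at 282 and 272 CPM in small intestine organoids and at 3.95, 7.44 and 3.18 CPM in GFP organoids (log2 fold change 5.82 ± 0.65 SE, adjusted p = 0.000781). Cdx1 was at 78.4 and 173.5 CPM in small intestine organoids against 0 counts in each GFP library, at least 1100-fold higher (adjusted p = 0.00403). Isx, a homeobox repressor of retinoid uptake that lies downstream of CDX2, was at 125 and 136 CPM against 0 counts in each GFP library, at least 1160-fold higher (adjusted p = 0.000518). Such lower bounds set the counts of the small intestine libraries against 3 counts over the 3 GFP libraries. All 3 genes were thus read in every small intestine library, Cdx2 at a low level in every GFP library, and Cdx1 and Isx in none of them.

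HNF4 factors were read in both groups and were higher in small intestine organoids. Hnf4a, at chromosome 2, 163506811 to 163572907, was at 717 and 885 CPM in small intestine organoids and at 158, 132 and 95.6 CPM in GFP organoids (log2 fold change 2.64 ± 0.40 SE, adjusted p = 0.00262). Hnf4g was at 23.2 and 46.6 CPM in small intestine organoids against 8.75, 10.2 and 11.9 CPM in GFP organoids (log2 fold change 1.76 ± 0.37 SE, adjusted p = 0.00854). The adjusted p of Hnf4g was 0.0657, and its log2 fold change 1.18, without small intestine library 2. No level of either gene overlapped between the groups. The pregnane X receptor Nr1i2, which senses drugs and bile acids, was higher (log2 fold change 2.38 ± 0.38 SE, adjusted p = 0.00344), as was the bile acid receptor Nr1h4 (3.37 ± 0.66 SE, adjusted p = 0.00704). Atoh1, the switch to secretory cells, was at 5.21 and 16.1 CPM in small intestine organoids against 0 counts in each GFP library, at least 91.8-fold higher (adjusted p = 0.00369). Gata5, a GATA factor expressed along much of the gut, was lower, at 39.6 and 86.9 CPM in small intestine organoids against 236, 276.5 and 589 CPM in GFP organoids, and its call was lost without small intestine library 1 (adjusted p = 0.105).

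Factors of the stomach showed the reverse. Of 11 tested, 6 were lower and 0 higher in small intestine organoids, with a median log2 fold change of -1.92. Only 3 of them were called lower without small intestine library 1. Sox2, at chromosome 3, 34649995 to 34652461, had 0 counts in both small intestine libraries and was at 116, 89.9 and 43.0 CPM in GFP organoids, at least 560-fold lower in intestine (adjusted p = 0.00106). Nkx6-3, a homeobox factor of antral gland cells, was at 0.0931 and 0.110 CPM in small intestine organoids against 133.6, 73.3 and 65.9 CPM in GFP organoids (ratio 914, 95% counting interval 253 to 7550, adjusted p = 0.000121). Sox21, a SOX family factor, was at 32.2 and 39.3 CPM in small intestine organoids against 216, 128 and 133 CPM in GFP organoids (log2 fold change -2.15 ± 0.37 SE, adjusted p = 0.00413). Sox2 and Nkx6-3 were therefore at or near 0 in intestine, while Sox21 was lower but still well read.

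Pdx1, a homeobox factor of the antrum, duodenum and pancreas, was at 6.33 and 21.0 CPM in small intestine organoids against 40.5, 35.4 and 36.6 CPM in GFP organoids (log2 fold change -1.46 ± 0.43 SE, adjusted p = 0.0325). It was called in the full comparison and, when single libraries were left out, only without small intestine library 2 (log2 fold change -2.56, adjusted p = 0.00401). Its adjusted p was 0.0673, 0.062 and 0.0603 without GFP libraries 1, 2 and 3 and 0.156 without small intestine library 1, where its log2 fold change was -0.84. Foxa2, a pioneer factor of endoderm, and Foxq1, a forkhead factor that promotes Muc5ac in mouse stomach, were also lower (log2 fold change -1.92 ± 0.40 and -2.22 ± 0.49 SE, adjusted p = 0.00842 and 0.0105). Their adjusted p was 0.0795 and 0.106 without small intestine library 1.

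**Figure D2:**
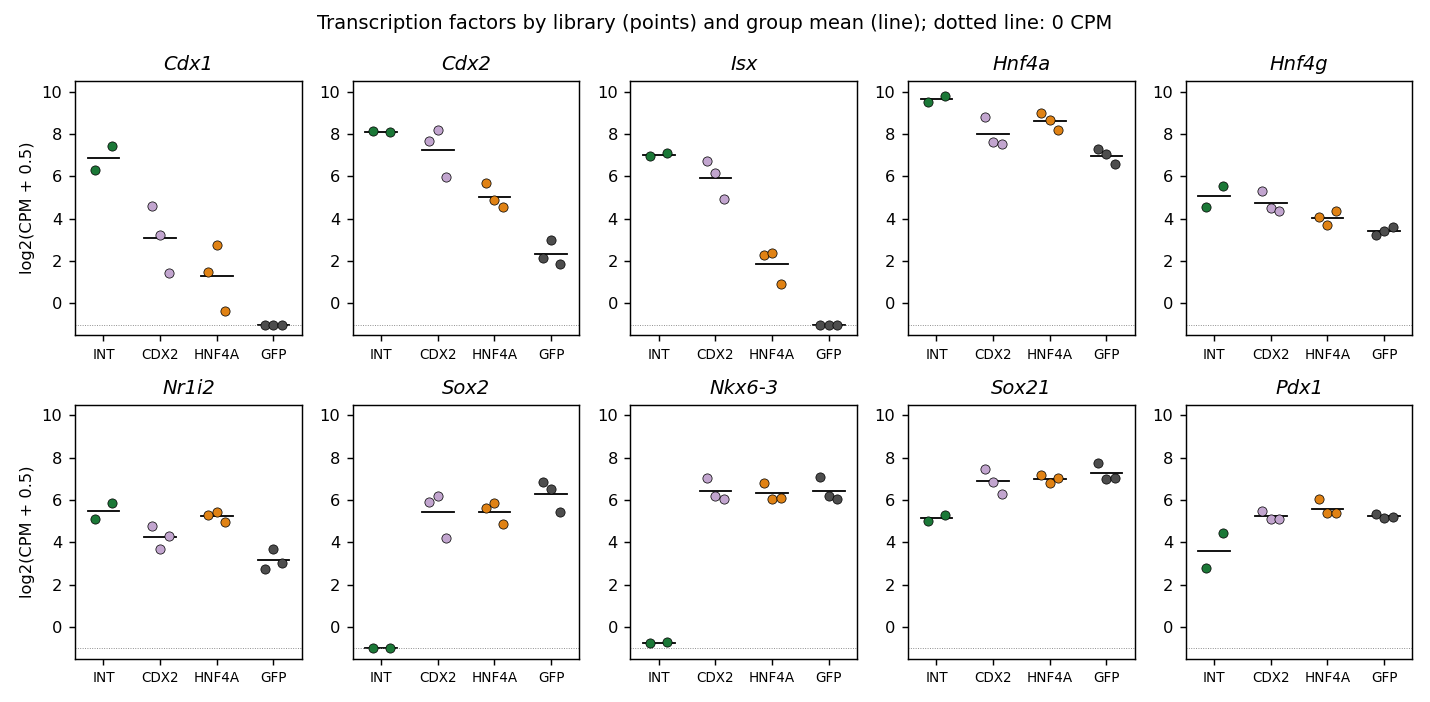
Level of 10 transcription factors in every library, as log2(CPM + 0.5), in small intestine (INT), CDX2, HNF4A and GFP organoids; points are libraries, horizontal lines are group means on this scale and the dotted line marks 0 CPM. Cdx1 and Isx are at 0 in all 3 GFP libraries, and Sox2 is at 0 in both small intestine libraries.

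Among the genes that the fold ranking put at the top in small intestine organoids, several code for factors or surface proteins with no count in GFP organoids. Tm4sf4, a membrane protein related to the tetraspanins, was at 248 and 169 CPM against 0 counts in each GFP library, at least 1900-fold higher (adjusted p = 0.00567). Gpr128, an adhesion receptor of the intestine, was at 86.2 and 148 CPM, at least 1030-fold higher (adjusted p = 0.00104). Tbx3, a patterning factor of the embryo, was at least 694-fold higher (adjusted p = 0.00369). Anxa13, an annexin of the apical membrane, was at 133 and 109 CPM in small intestine organoids, and 1 count was read in the 3 GFP libraries together (ratio 3290, counting interval 589 to 130000, adjusted p = 0.0002). Slc14a1, a urea transporter, was at 3.82 and 42.7 CPM against 0 counts in each GFP library, at least 195-fold higher (adjusted p = 0.0143), and its adjusted p without small intestine library 2 was 0.056.

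Several genes of the gastric epithelium were read at high levels in GFP organoids and at low levels in small intestine organoids. Muc1, a membrane mucin, had 0 and 1 counts in small intestine libraries 1 and 2 and was at 623, 889 and 923 CPM in GFP organoids (ratio 16000, counting interval 2880 to 633000, adjusted p = 6.19e-05). Cldn18, a claudin of stomach tight junctions, was at 0.466 and 1.43 CPM in small intestine organoids against 623, 747 and 842.5 CPM in GFP organoids (log2 fold change -9.62 ± 0.78 SE, adjusted p = 0.000164). Aqp5, a water channel of antral gland cells, was at 0.559 and 3.84 CPM in small intestine organoids against 1645, 1697 and 888 CPM in GFP organoids (log2 fold change -9.35 ± 1.04 SE, adjusted p = 0.000781). These 3 genes were high in every GFP library and at no more than 3.84 CPM in both small intestine libraries.

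Muc6, the secreted mucin of gastric glands, was at 0.0931 and 0.439 CPM in small intestine organoids against 2003, 3771 and 6919 CPM in GFP organoids (log2 fold change -13.94 ± 2.79 SE, adjusted p = 0.00748). Its adjusted p without small intestine library 1 was 0.0796. Gkn3, a gastrokine of mucous neck and antral gland cells, had 0 counts in small intestine library 1, was at 49.1 CPM in library 2 and reached 1477, 3551 and 6619 CPM in GFP organoids (log2 fold change -7.31 ± 2.08 SE, adjusted p = 0.0284). Its log2 fold change was -18.04 without small intestine library 2, and without GFP library 2, GFP library 3 or small intestine library 1 its adjusted p was 0.0534, 0.0528 or 0.0791. Over the gland list 7 of 11 tested genes were lower and 0 higher, with a median log2 fold change of -6.55, or -11.26 without small intestine library 2. The count of lower genes was 1 without small intestine library 1, and 4 without small intestine library 2, GFP library 2 or GFP library 3.

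Surface pit cells gave a mixed record. Of 15 tested genes 4 were lower and 1 higher in small intestine organoids, with a median log2 fold change of -3.01. On leaving out small intestine library 2 there were 6 lower and 0 higher with a median of -7.07, and on leaving out GFP library 3 there were 2 lower. The higher call was also lost without GFP library 2 or 3. Muc5ac, the secreted mucin that defines pit cells, had 0 counts in both small intestine libraries and was at only 23.6, 11.7 and 1.59 CPM in GFP organoids (adjusted p = 0.0571). Ctse, a gastric aspartic protease, was at 0.466 and 55.6 CPM in small intestine organoids against 509, 395 and 414 CPM in GFP organoids (adjusted p = 0.0374); without small intestine library 2 its log2 fold change was -9.84 in place of -3.97. The call for Ctse was lost without any 1 of the 3 GFP libraries (adjusted p = 0.0661, 0.0664 and 0.0616). Atp4b, a subunit of the acid pump of parietal cells, and Cckbr, the gastrin receptor, had at most 1 count across the 5 libraries. Atp4a, the other subunit of that pump, was read at 0.931 and 1.54 CPM in small intestine organoids and at 4.37, 3.51 and 1.10 CPM in GFP organoids and was not called (log2 fold change -1.28 ± 0.77 SE, adjusted p = 0.236). In bulk RNA, fewer cells of a type and less RNA per cell cannot be told apart, here and in the cell-type lists below.

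Among secreted defence proteins of the stomach 6 of 13 tested were lower in small intestine organoids and 2 higher, with a median log2 fold change of -5.15. Ltf, lactoferrin, which withholds iron from bacteria, was at 1.02 and 1.21 CPM in small intestine organoids against 1033, 399.9 and 335 CPM in GFP organoids (log2 fold change -9.03 ± 0.76 SE, adjusted p = 0.000198). Bpifb1, a secreted lipid-binding protein of mucosal surfaces, had 0 counts in both small intestine libraries and was at 84.6, 179 and 86.8 CPM in GFP organoids, at least 783-fold lower in intestine (adjusted p = 0.00197). Cxcl17, a mucosal chemokine, was at 0.0931 and 0 CPM in small intestine organoids against 135.5, 125 and 181 CPM in GFP organoids (ratio 2890, counting interval 518 to 114000, adjusted p = 0.00061). The complement and plasma protein genes C3 and Cp, ceruloplasmin, were lower too (log2 fold change -6.78 ± 1.12 and -6.62 ± 1.08 SE, adjusted p = 0.00379 and 0.0036).

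The 2 listed defence genes that rose in small intestine organoids were Cfb and Nos2. Cfb, complement factor B, was at 64.5 and 81.1 CPM in small intestine organoids against 13.01, 18.0 and 19.5 CPM in GFP organoids (log2 fold change 2.11 ± 0.31 SE, adjusted p = 0.00258). Nos2, the inducible nitric oxide synthase, was at 15.6 and 6.36 CPM against 0.107, 0.319 and 0.122 CPM (log2 fold change 5.79 ± 0.94 SE, adjusted p = 0.00354). The complement genes therefore did not move as a block: C3 was lower and Cfb was higher. Lrg1, a secreted leucine-rich glycoprotein, had 0 and 1 counts in small intestine libraries 1 and 2 and was at 274, 228 and 99.55 CPM in GFP organoids (ratio 4070, counting interval 731 to 161000, adjusted p = 0.00014).

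Trf and Spp1, which code for secreted proteins, and Capn6 were also lower in small intestine organoids. Trf, transferrin, was at 1.49 and 2.41 CPM in small intestine organoids against 5926, 3096 and 1837 CPM in GFP organoids (log2 fold change -10.86 ± 1.16 SE, adjusted p = 0.000642). Spp1, osteopontin, had 0 counts in small intestine library 1, was at 6.69 CPM in library 2 and was at 4267, 3095 and 1747 CPM in GFP organoids (log2 fold change -9.85 ± 1.5 SE, adjusted p = 0.00276). The log2 fold change of Spp1 was -17.69 without small intestine library 2. Capn6, a calpain-like protein of microtubules, had 0 counts in both small intestine libraries and was at 37.1, 56.75 and 173 CPM in GFP organoids, at least 563-fold lower in intestine (adjusted p = 0.00416).

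Others at 0 counts in both small intestine libraries were Kcnj15, a potassium channel of gastric epithelium, Fxyd6, a regulator of the sodium pump, Sulf1, an extracellular sulfatase, and Igfbp5, which binds insulin-like growth factors. They were at least 681-fold, 462-fold, 344-fold and 209-fold lower in small intestine organoids (adjusted p = 0.0125, 0.00807, 0.00755 and 0.0316). On leaving out small intestine library 1, these became 0.0869, 0.0657, 0.0616 and 0.162. The call for Igfbp5 was also lost without small intestine library 2 (0.1) and without GFP libraries 1, 2 and 3 (0.0545, 0.0593 and 0.0536). Its levels were at 37.3, 30.6 and 26.3 CPM in GFP organoids, so the groups lay far apart in spite of the unstable call.

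Genes that build the brush border were higher in small intestine organoids. Of 18 tested genes 11 were higher and 1 lower, with a median log2 fold change of 1.17, and 8 of the 11 remained called whichever library was left out. Myo7b, the motor that carries the adhesion complex at the tips of microvilli, was at 347 and 414 CPM in small intestine organoids against 0.320, 0.319 and 0.367 CPM in GFP organoids (log2 fold change 10.09 ± 0.61 SE, adjusted p = 6.19e-05). Its partners Ush1c and Cdhr5, a scaffold and a protocadherin of that complex, were higher with log2 fold changes of 9.25 ± 1.26 and 8.83 ± 1.27 SE (adjusted p = 0.00192 and 0.0023). Anks4b, a further scaffold of the complex, was at 23.2 and 41.8 CPM in small intestine organoids against 1.07, 2.98 and 0.857 CPM in GFP organoids (log2 fold change 4.29 ± 0.68 SE, adjusted p = 0.00344). Cdhr2, the other protocadherin of the complex, was at 238 and 354.9 CPM in small intestine organoids against 15.8, 19.9 and 4.29 CPM in GFP organoids (4.47 ± 1.02 SE, adjusted p = 0.0125). Calml4, a myosin light chain of the complex, differed less, at 86.6 and 148.5 CPM against 29.4, 28.5 and 13.47 CPM (2.30 ± 0.40 SE, adjusted p = 0.00456).

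Cdh17, the intestinal cadherin of lateral membranes, was at 773 and 727 CPM in small intestine organoids against 1.71, 3.61 and 4.41 CPM in GFP organoids (log2 fold change 7.85 ± 0.83 SE, adjusted p = 0.000638). The actin-bundling villin Vil1 differed far less, at 494 and 576 CPM in small intestine organoids against 311, 387 and 366 CPM in GFP organoids (log2 fold change 0.59 ± 0.19 SE, adjusted p = 0.0426). Its call was lost on leaving out any single library, with an adjusted p from 0.0664 without GFP library 2 to 0.182 without small intestine library 2. Eps8l2, which caps actin filaments, was the 1 lower member (log2 fold change -0.70 ± 0.19 SE, adjusted p = 0.0222). Without GFP library 2, GFP library 3 or small intestine library 1 its adjusted p was 0.0625, 0.0531 or 0.2.

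Digestion and uptake of sugars followed: 6 of 9 tested genes were higher and 0 lower, with a median log2 fold change of 4.66. Sis, sucrase-isomaltase, was at 30.4 and 51.1 CPM in small intestine organoids against 0 counts in each GFP library, at least 358-fold higher (adjusted p = 0.00421). Mgam, maltase-glucoamylase, was at 221 and 471 CPM in small intestine organoids against 12.1, 19.3 and 9.55 CPM in GFP organoids (log2 fold change 4.66 ± 0.40 SE, adjusted p = 0.0002). Slc5a1, the sodium-glucose cotransporter SGLT1, was at 69.0 and 105 CPM against 0.427, 1.17 and 3.43 CPM (log2 fold change 5.72 ± 0.64 SE, adjusted p = 0.000781). Of these disaccharidases Sis was unread in GFP organoids while Mgam was present at a low level in all 3 libraries.

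Fat absorption genes were higher at 10 of 20 tested and lower at 2, with a median log2 fold change of 2.02. The 2 lower calls were near the share of all tested genes (12.9%). Mttp, which loads lipid onto apolipoprotein B, was at 76.3 and 123 CPM in small intestine organoids against 20.9, 15.2 and 21.6 CPM in GFP organoids (log2 fold change 2.37 ± 0.33 SE, adjusted p = 0.00204). Abcg5 and Abcg8, the partner subunits of the sterol efflux pump, were at 35.7 and 19.96 CPM and at 22.3 and 21.8 CPM in small intestine organoids, and no GFP library exceeded 0.320 CPM for either. Fabp2, the intestinal fatty acid binding protein, was at only 3.54 and 19.75 CPM in small intestine organoids, and 2 counts were read over the 3 GFP libraries (ratio 148, counting interval 40.5 to 1230, adjusted p = 0.00763). Apoa1, an apolipoprotein of HDL and chylomicrons, was at 25.9 and 40.7 CPM against 0.960, 0.425 and 0 CPM (log2 fold change 6.09 ± 1.36 SE, adjusted p = 0.0113). Mature enterocyte lipid genes were thus read in small intestine organoids, some of them at a low level. The 2 lower members were Abca1, a cholesterol efflux pump, and Plb1, a phospholipase, and both calls were lost without either small intestine library (adjusted p without library 1 and library 2 of 0.161 and 0.0521 for Abca1 and of 0.114 and 0.0751 for Plb1; for Plb1 also 0.0506 without GFP library 2).

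Peptidases and amino acid carriers were called in both directions, at 5 higher and 2 lower of 18 tested. The 2 lower calls were near the share of all tested genes (12.9%). The higher count was 3 without GFP library 2, GFP library 3 or small intestine library 2, and the lower count was 0 without GFP library 2 or small intestine library 1 and 1 without GFP library 3 or small intestine library 2. Enpep, glutamyl aminopeptidase, and Mep1b, meprin, were higher (adjusted p = 0.00459 and 0.00661). Anpep, aminopeptidase N, went the other way, at 6.796 and 13.6 CPM in small intestine organoids against 133, 201 and 268 CPM in GFP organoids (log2 fold change -4.30 ± 1.26 SE, adjusted p = 0.0309). Ace, which trims peptides at the brush border, was at 12.3 and 11.7 CPM against 60.1, 43.9 and 16.8 CPM (log2 fold change -1.74 ± 0.45 SE, adjusted p = 0.0203). The levels of both did not overlap, and both calls were lost without small intestine library 1 (adjusted p = 0.201 for Anpep and 0.125 for Ace), library 2 (0.0911 and 0.084) and GFP library 2 (0.0591 and 0.0509). For Anpep the call was also lost without GFP library 3 (0.0619).

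Of the genes that handle drugs and other foreign compounds 13 of 30 tested were higher and 1 was lower, with a median log2 fold change of 3.86. The higher count was 8 without small intestine library 2. The export pumps Abcc2 and Abcb1a were at 260.1 and 185 CPM and at 128 and 208 CPM in small intestine organoids, and no GFP library exceeded 3.84 CPM for either (log2 fold change 10.12 ± 1.74 and 6.13 ± 1.08 SE, adjusted p = 0.00434 and 0.00474). Cyp2c55, a cytochrome P450, was at 62.9 and 126 CPM in small intestine organoids against 1.71, 3.08 and 0.122 CPM in GFP organoids (log2 fold change 5.81 ± 1.19 SE, adjusted p = 0.00816). Reads of P450, carboxylesterase and glutathione transferase genes may be shared with close paralogs. The lower member was Aldh1a1, a retinaldehyde dehydrogenase, at 49.2 and 55.7 CPM in small intestine organoids against 196, 194 and 418 CPM in GFP organoids (log2 fold change -2.36 ± 0.36 SE, adjusted p = 0.00262).

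Of the genes of nitrogen metabolism 8 of 12 tested were higher (5 without small intestine library 1) and 0 lower, with a median log2 fold change of 1.37. Cps1, the entry enzyme of the urea cycle, which the intestine uses to make citrulline, was at 183 and 737 CPM in small intestine organoids against 0.533, 0.319 and 0 CPM in GFP organoids (log2 fold change 10.54 ± 1.52 SE, adjusted p = 0.0023). Nags, which makes the activator of CPS1, was at 8.57 and 7.57 CPM against 0 counts in each GFP library, at least 72.8-fold higher (adjusted p = 0.00738). Oat and Aldh18a1, the enzymes that turn glutamate toward ornithine, were at 473 and 538 CPM and at 273 and 226 CPM in small intestine organoids, and ran from 60.4 to 127 CPM and from 77.9 to 125 CPM in GFP organoids (log2 fold change 2.51 ± 0.33 and 1.37 ± 0.23 SE, adjusted p = 0.00168 and 0.00397). These 4 genes of the route from glutamate to citrulline were thus higher together in small intestine organoids.

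Ketone and fat oxidation genes showed no common direction, with 3 of 14 tested higher and 3 lower and a median log2 fold change of -0.23. On leaving out single libraries the higher count was 1 to 3 (lowest without small intestine library 2) and the lower count 0 to 3 (0 without GFP library 2 or small intestine library 1, and 1 without GFP library 1). Bdh1, hydroxybutyrate dehydrogenase, was the stable member, at 203 and 390.0 CPM in small intestine organoids against 39.7, 60.2 and 24.6 CPM in GFP organoids (log2 fold change 2.84 ± 0.47 SE, adjusted p = 0.00379). Among iron and vitamin genes 3 of 17 were higher and 2 lower, against 1 higher and 0 lower without GFP library 2, 0 lower without small intestine library 1 and 1 lower without GFP library 3. The counts of 3 and 2 were near the shares of all tested genes (14.2% higher and 12.9% lower). Heph, the ferroxidase that lets iron out of enterocytes, was at 100.3 and 149 CPM in small intestine organoids against 0, 2.13 and 0 CPM in GFP organoids (log2 fold change 7.39 ± 1.10 SE, adjusted p = 0.00258). Without GFP library 2, the only GFP library with Heph reads, its log2 fold change was 13.08.

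Guanylin signalling, which sets fluid secretion in the intestine, differed at 7 of 9 tested genes, 6 higher and 1 lower (2 lower without small intestine library 2), with a median log2 fold change of 4.84. Gucy2c, the receptor guanylate cyclase, was at 138 and 179.9 CPM in small intestine organoids, and 2 counts were read over the 3 GFP libraries (ratio 2120, counting interval 586 to 17500, adjusted p = 0.000121). Its ligand Guca2a, guanylin, was at 9.12 and 17.3 CPM in small intestine organoids, again with 2 counts over the GFP libraries (ratio 174, counting interval 47.6 to 1440, adjusted p = 0.00678). Prkg2, the kinase that acts after the receptor, was at 75.3 and 54.4 CPM in small intestine organoids (ratio 886, counting interval 245 to 7320, adjusted p = 0.000389). Receptor, ligand and kinase were therefore all read in both small intestine libraries and nearly absent from GFP organoids.

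Of the ion carriers under this pathway, Cftr, the chloride channel that opens, was at 220.0 and 298 CPM in small intestine organoids against 60.1, 41.4 and 17.5 CPM in GFP organoids (log2 fold change 2.70 ± 0.63 SE, adjusted p = 0.0135, and 0.0539 without small intestine library 1). Slc9a3, the sodium-proton exchanger NHE3 that closes, was the lower member, at 2.42 and 4.72 CPM in small intestine organoids against 309, 314 and 377 CPM in GFP organoids (log2 fold change -6.55 ± 0.95 SE, adjusted p = 0.00235). In the intestine NHE3 is a transporter of mature enterocytes. Its high level in GFP gastric organoids thus ran against the rest of the list.

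Goblet cell genes were higher at 5 of 14 tested and lower at 2. All 14 were higher in small intestine library 2 than in library 1, a lean shared by most of the lists. Fcgbp, a mucus protein, was at 131 and 824 CPM in small intestine organoids against 4.69, 4.78 and 3.43 CPM in GFP organoids (log2 fold change 6.79 ± 0.84 SE, adjusted p = 0.0012). Tff3, the intestinal trefoil peptide, was at 51.2 and 168 CPM against 0.107, 0.744 and 0 CPM (log2 fold change 8.47 ± 1.23 SE, adjusted p = 0.00235). Muc2, the secreted goblet mucin, was at 5.96 and 55.1 CPM in small intestine organoids against 0.640, 8.29 and 1.22 CPM in GFP organoids and was not called (adjusted p = 0.0621). The Muc2 levels overlapped, and that of small intestine library 1 lay below GFP library 2.

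The lower goblet genes were the regulators Spdef and Creb3l1, 2 of 14 tested, which is near the share of all tested genes (12.9% lower). Spdef, an ETS factor of mucous cells, was at 2.14 and 10.6 CPM in small intestine organoids against 69.5, 99.5 and 109 CPM in GFP organoids (log2 fold change -3.87 ± 0.80 SE, adjusted p = 0.00822, and 0.0634 without small intestine library 1). Creb3l1, a stress transducer of secretory cells, was lower at an adjusted p of 0.0466, and its call was lost without small intestine library 1 (0.0912) or without GFP library 1, 2 or 3 (0.0813, 0.104 or 0.0626). Its log2 fold change was -1.82, and -1.02 or -3.74 without small intestine library 1 or 2. Without small intestine library 2 the goblet list gave 3 higher and 5 lower genes, with a median log2 fold change of -0.92 in place of 1.55. The lower count was 1 without any 1 of the GFP libraries and 0 without small intestine library 1, where the median was 2.45. Muc13, a membrane mucin of enterocytes and goblet cells, was at 220 and 324.5 CPM in small intestine organoids against 0.213, 0.531 and 0 CPM (log2 fold change 9.96 ± 1.66 SE, adjusted p = 0.00386).

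Reg4, a lectin of intestinal secretory cells that ranked sixth by fold, was at 10.2 and 93.1 CPM in small intestine organoids against 0 counts in each GFP library, at least 433-fold higher (adjusted p = 0.0103). Paneth cell genes were higher at 4 of 10 tested and lower at 2. The higher count was 2 without GFP library 1, GFP library 3 or either small intestine library, and the lower count was 1 on leaving out any library but GFP library 1. Lyz1, lysozyme, was at 29.7 and 86.3 CPM in small intestine organoids against 0, 1.70 and 0.122 CPM in GFP organoids (log2 fold change 6.51 ± 1.55 SE, adjusted p = 0.0146). Defa17, an alpha-defensin whose reads may be shared with its paralogs, was at 11.8 and 31.4 CPM against 0 counts in each GFP library, at least 187-fold higher (adjusted p = 0.0074). The antibacterial lectin Reg3g went the other way, at 2.70 and 3.51 CPM in small intestine organoids against 132, 243 and 111 CPM in GFP organoids (log2 fold change -5.71 ± 0.58 SE, adjusted p = 0.000503). This is the gene whose upstream sequence matches the CDX motif at 2 places, 1 of them over the letters TATAAA.

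Enteroendocrine genes were higher at 5 of 19 tested and lower at 0, with a median log2 fold change of 2.33. Over all tested genes 14.2% were higher and 12.9% lower. Of the 19 genes 9 had no more than 3 counts in all libraries of 1 group. Such genes can pass the abundance filter through the group where they are high, so the count and the median do not describe the list as a whole. The higher count was 3 without GFP library 1 or small intestine library 1 and 2 without GFP library 2, GFP library 3 or small intestine library 2. The median was 0.24 without small intestine library 2. Sct, secretin, was at 3.63 and 6.25 CPM in small intestine organoids against 0 counts in each GFP library, at least 43.4-fold higher (adjusted p = 0.00267). Cck, cholecystokinin, was at 4.10 and 4.61 CPM in small intestine organoids, and 1 count was read in GFP organoids (ratio 117, counting interval 20.4 to 4660, adjusted p = 0.00958). These are hormones of the upper small intestine. Tuft cell genes were lower at 2 of 9 tested and higher at 0. Dclk1, a kinase that marks tuft cells, was at 0.0931 and 1.87 CPM in small intestine organoids against 56.5, 81.1 and 213 CPM in GFP organoids (log2 fold change -6.94 ± 1.59 SE, adjusted p = 0.0125, and 0.106 without small intestine library 1). Ptgs1, cyclooxygenase 1, was lower at an adjusted p of 0.0165, and of 0.0677 without small intestine library 2; its log2 fold change was -2.60, and -3.9 without library 1.

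Of the stem cell and Wnt target genes 1 of 24 tested was higher and 4 were lower, with a median log2 fold change of -0.37. The lower count was near the share of all tested genes (12.9%). Notum, a secreted enzyme that inactivates Wnt ligands, was at 1.12 and 0.658 CPM in small intestine organoids against 105, 64.1 and 88.65 CPM in GFP organoids (log2 fold change -6.56 ± 0.63 SE, adjusted p = 0.000371). Prom1, a membrane protein of progenitor cells, was at 214 and 583 CPM against 2273, 2737 and 2344 CPM (log2 fold change -2.62 ± 0.42 SE, adjusted p = 0.00352). Lgr5, the receptor that marks crypt stem cells, was at 76.8 and 103 CPM in small intestine organoids against 112, 213 and 197 CPM in GFP organoids and was not called (adjusted p = 0.303). Olfm4, a marker of mouse small intestine stem cells, was at 0.279 and 76.9 CPM in small intestine organoids and at no more than 0.245 CPM in GFP organoids, so that 1 library carried its call. Its adjusted p was 0.0212, against 0.698 (log2 fold change 1.2) without small intestine library 2 and 0.0626, 0.0678 and 0.0555 without GFP libraries 1, 2 and 3. Sox9 and Sp5, factors of crypt progenitors and Wnt response, were lower (adjusted p = 0.00999 and 0.0165), and without small intestine library 1 their adjusted p was 0.101 and 0.0952. For Sp5 it was also 0.0817 without library 2.

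Replication and mitosis genes were higher at 13 of 16 tested and lower at 0, with a median log2 fold change of 1.58. Mcm6, a subunit of the replicative helicase, was at 302 and 212 CPM in small intestine organoids against 110.4, 89.7 and 81.7 CPM in GFP organoids (log2 fold change 1.45 ± 0.25 SE, adjusted p = 0.00412). Top2a, which untangles DNA in dividing cells, was at 681 and 477 CPM against 225, 221 and 143 CPM (log2 fold change 1.56 ± 0.35 SE, adjusted p = 0.0109, and 0.0995 without small intestine library 1). Without small intestine library 1 only Mcm6 of this list was called, and the list's median was 1.30. Without library 2, 13 were called and the median was 1.83. Of the 16 genes 15 were higher in small intestine library 1 than in library 2, the reverse of the goblet genes and of most lists.

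Genes of fetal or regenerating epithelium were lower at 7 of 18 tested and higher at 0, with a median log2 fold change of -0.60. Spp1, given above, was among them. Clu, clusterin, a marker of damage-responsive stem cells, was at 83.4 and 1533 CPM in small intestine organoids against 10950, 8192 and 11160 CPM in GFP organoids (log2 fold change -3.64 ± 0.96 SE, adjusted p = 0.0216). The small intestine libraries were far apart for Clu, and without library 2 its log2 fold change was -6.92. The list gave 3 lower genes without small intestine library 1 and 4 without library 2.

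Enzymes that add sugars to proteins and lipids differed in both directions, with 5 of 22 tested higher and 5 lower. The higher count was 1 without GFP library 2, 2 without GFP library 3 or small intestine library 2 and 3 without small intestine library 1. The lower count was 3 without GFP library 1 or 2 and 2 without small intestine library 1. B4galnt2, which builds the Sda blood group sugar, had the smallest adjusted p of all listed genes, at 409.6 and 508.5 CPM in small intestine organoids against 1.39, 2.34 and 2.94 CPM in GFP organoids (log2 fold change 7.69 ± 0.32 SE, adjusted p = 4.34e-06). Fut2, the fucosyltransferase of secreted mucins, was at 8.38 and 9.21 CPM against 183, 189.8 and 121 CPM (log2 fold change -4.22 ± 0.29 SE, adjusted p = 6.19e-05). St6gal1, a sialyltransferase, was lower as well (log2 fold change -2.77 ± 0.47 SE, adjusted p = 0.00419). For each of these 3 enzymes the groups did not overlap. Lgals2, galectin 2, was higher, at 226 and 334 CPM in small intestine organoids against 15.4, 9.46 and 5.14 CPM in GFP organoids (log2 fold change 4.80 ± 0.64 SE, adjusted p = 0.00177).

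Claudins, which seal or open tight junctions, were called in both directions. The 1 lower call of 17 tested was below the share of all tested genes (12.9%). The intestinal claudin Cldn15, which forms sodium pores, was at 159 and 118 CPM in small intestine organoids against 0.320, 0.425 and 0.245 CPM in GFP organoids (log2 fold change 8.64 ± 1.16 SE, adjusted p = 0.00177). Cldn2 and Cldn3 were higher by 1.84 ± 0.32 and 2.15 ± 0.38 SE on the log2 scale (adjusted p = 0.00423 and 0.00468), with 1.2 for Cldn2 without small intestine library 2. With Cldn18 lower, the claudin list held 4 higher and 1 lower of 17 tested (2 lower without small intestine library 2), at a median log2 fold change of -0.13. Krt20, a keratin of mature enterocytes, was at 24.3 and 58.9 CPM in small intestine organoids against 0.640, 0.213 and 0 CPM (log2 fold change 7.08 ± 1.47 SE, adjusted p = 0.00856). Of 12 keratins 2 were higher, near the share of all tested genes (14.2%), and 0 lower. The 2 higher calls did not both hold when any single library of either group was left out.

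Intracellular sensing genes were higher at 5 of 16 tested and lower at 0, with 2 higher without either small intestine library and 3 without GFP library 1. Naip1, a sensor of bacterial secretion systems whose reads may be shared with other Naip genes, was at 53.4 and 222 CPM in small intestine organoids, and 1 count was read in GFP organoids (ratio 3520, counting interval 632 to 139000, adjusted p = 0.00164). Casp1, the inflammasome protease, was at 22.1 and 36.1 CPM in small intestine organoids against 2.45, 3.40 and 3.67 CPM in GFP organoids (log2 fold change 3.19 ± 0.50 SE, adjusted p = 0.00321). Interferon and antigen presentation genes were lower at 4 of 22, near the share of all tested genes, and higher at 0, with 1 lower without small intestine library 1 and 2 without library 2. Tap2, a peptide transporter, was at 6.70 and 9.32 CPM in small intestine organoids against 35.2, 31.0 and 38.7 CPM in GFP organoids (log2 fold change -2.13 ± 0.35 SE, adjusted p = 0.0036).

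Genes of the unfolded protein response were lower at 5 of 20 tested and higher at 0, at a median log2 fold change of -0.34. The lower count was 2 without small intestine library 1 and 1 without library 2, and 1 gene was called higher without GFP library 2. Xbp1, the factor that expands secretory capacity, was at 136 and 149 CPM in small intestine organoids against 576, 515 and 417 CPM in GFP organoids (log2 fold change -1.82 ± 0.24 SE, adjusted p = 0.00162), and it was the 1 member called whichever library was left out. Cholesterol synthesis was higher at 8 of 18 and lower at 0, at a median of 1.43. Without small intestine library 1, 0 of these 18 were called, and the count was 1 without small intestine library 2, 1 without GFP library 2 and 2 without GFP library 3.

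**Figure D3:**
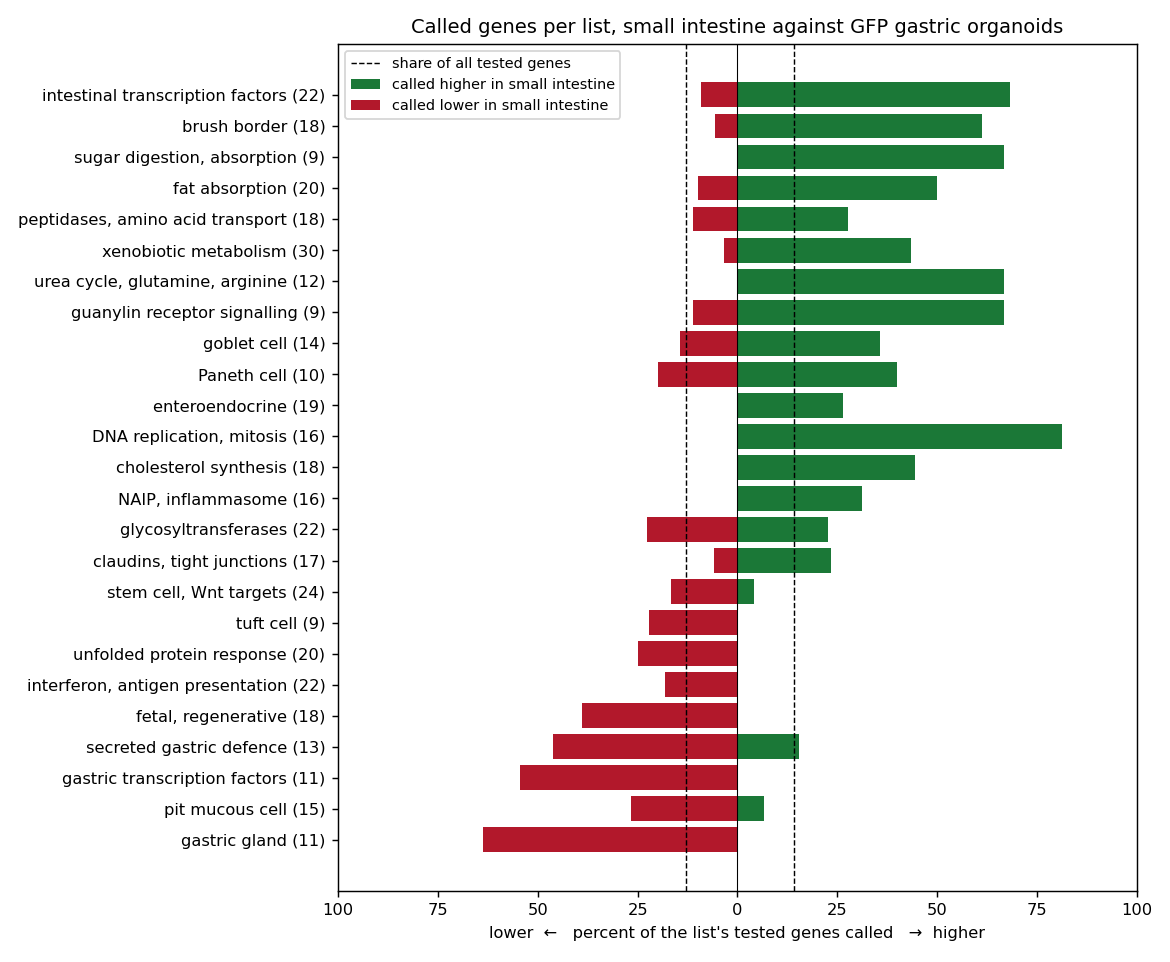
Share of the tested genes of 25 lists that were called higher (green, to the right) or lower (red, to the left) in small intestine organoids against GFP gastric organoids, with the number tested in brackets; dashed lines mark the shares over all tested genes, 14.2% higher and 12.9% lower. The lists at the top hold mainly higher genes and the gastric lists at the bottom mainly lower ones.

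Markers of other organs and regions were also examined. Of 7 tested squamous genes 1 was higher and 0 lower, and of 2 tested pancreas genes 0 were higher and 1 lower. Of 5 tested genes that are high in colon or cecum rather than small intestine, 1 was higher, B4galnt2, and 0 lower. Over all tested genes 14.2% were higher and 12.9% lower. Of 39 Hox genes, which set position along the gut, only Hoxa3 was abundant enough to test, at 2.14 and 3.73 CPM in small intestine organoids against 0 counts in each GFP library, at least 25.8-fold higher (adjusted p = 0.0113, and 0.0501 without small intestine library 1). The 39 together summed to 10.99 and 11.96 CPM in small intestine organoids and to 0.107, 0 and 1.22 CPM in GFP organoids. Among 12 tested genes that vary along the small intestine 3 were higher (Nr1h4, Onecut2 and Osr2) and 1 lower (Cybrd1, a duodenal iron reductase). The ileal hormone Fgf15 was at 19.5 and 5.49 CPM against 0 counts in each GFP library, at least 117-fold higher (adjusted p = 0.019, and 0.09 without small intestine library 1). These calls were lost without small intestine library 2 (0.0589 for Onecut2), without library 1 (0.0747 for Osr2 and 0.235 for Cybrd1) or without GFP libraries 2 and 3 in turn (0.118 and 0.061 for Cybrd1). The log2 fold change of Onecut2 was 3.13, and 1.92 without small intestine library 2, and that of Cybrd1 was -2.13, and -3.49 without library 2.

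Among the called genes with the highest CPM in small intestine organoids, differences were small and most calls were unstable. Krt8, a keratin of simple epithelia, Rps2, a ribosomal protein, Actb and Actg1, actins, Atp5b and Atp5a1, subunits of the ATP synthase, and Ybx1, an RNA-binding protein, were higher by 0.68 to 1.32 on the log2 scale (adjusted p from 0.02 to 0.0401). All 7 calls were lost without small intestine library 1, with adjusted p from 0.0607 to 0.251. Krt8, Actb and Atp5a1 lost their call on leaving out any single library. The other calls were lost without GFP library 1 (Rps2, Atp5b and Actg1, adjusted p = 0.0593, 0.0622 and 0.0607), GFP library 2 (Actg1 and Ybx1, 0.061 and 0.0719), GFP library 3 (Rps2, Atp5b and Ybx1, 0.0756, 0.0581 and 0.0925) or small intestine library 2 (Rps2, 0.0528). Ncl, nucleolin, a protein of ribosome assembly, was the exception, at 1973 and 1191 CPM in small intestine organoids against 649, 484.5 and 631 CPM in GFP organoids (log2 fold change 1.43 ± 0.24 SE, adjusted p = 0.00394). Of the lower genes with the highest CPM, Bsg, a surface glycoprotein, and Malat1, a nuclear RNA, were lower by -2.06 ± 0.61 and -1.89 ± 0.63 SE on the log2 scale (adjusted p = 0.0323 and 0.0492). Leaving out small intestine library 1 gave adjusted p of 0.217 and 0.264, and that of Malat1 was 0.107, 0.0808 and 0.066 without GFP libraries 1, 2 and 3. The log2 fold change of Malat1 was -1.21 or -3.2 without small intestine library 1 or 2. For Bsg the adjusted p was 0.0734 and 0.081 without GFP libraries 1 and 2 and 0.0705 without small intestine library 2. Bsg was at 2192 and 3611 CPM in small intestine organoids against 15820, 15720 and 4762 CPM in GFP organoids.

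The same genes were read in the gastric lines carrying CDX2 or HNF4A. Small intestine organoids differed from the CDX2 lines at 1437 genes (11.3% of tested, 716 or 5.63% higher and 721 or 5.67% lower) and from the HNF4A lines at 1585 genes (12.5%, 741 or 5.83% higher and 844 or 6.64% lower). These comparisons use the same 2 small intestine libraries, so their calls are not independent of the comparison with GFP. The counts depended on which libraries were in the fit. With only the 5 libraries of each comparison they were 70 and 559, without small intestine library 1 they were 103 and 142, and without small intestine library 2 they were 1401 and 1423. Leaving out CDX2 library 1, 2 or 3 gave 800, 1087 or 444 genes against the CDX2 lines, and leaving out HNF4A library 1, 2 or 3 gave 1103, 344 or 524 against the HNF4A lines. Reads of the CDX2 and HNF4A transgenes cannot be told from those of the mouse genes, so Cdx2 in CDX2 lines and Hnf4a in HNF4A lines count both.

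Cdx2 was at 200, 287.5 and 62.0 CPM in CDX2 organoids and at 50.6, 29.1 and 22.6 CPM in HNF4A organoids. Small intestine organoids did not differ from the CDX2 lines at Cdx2 by the test (log2 fold change 0.60 ± 0.55 SE, adjusted p = 0.502) and were higher than the HNF4A lines (3.02 ± 0.57 SE, adjusted p = 0.0155). Isx was at 104, 71.5 and 30.3 CPM in CDX2 organoids and at 4.41, 4.64 and 1.36 CPM in HNF4A organoids. Small intestine over CDX2 gave 0.92 ± 0.53 SE for Isx (adjusted p = 0.282), and small intestine over HNF4A gave 5.21 ± 0.61 SE (adjusted p = 0.00378). Hnf4a was higher in small intestine organoids than in CDX2 lines (1.54 ± 0.39 SE, adjusted p = 0.0357) and did not pass against HNF4A lines (1.01 ± 0.39 SE, adjusted p = 0.11). The call for Cdx2 against HNF4A lines was lost without small intestine library 1 (adjusted p = 0.0817) or HNF4A library 2 (0.0615). The call for Hnf4a against CDX2 lines was lost without small intestine library 1 or 2 (0.169 and 0.0973) or CDX2 library 2 or 3 (0.0796 and 0.1).

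The gastric factors Sox2 and Nkx6-3 and the claudin Cldn18 were read in both sets of lines. Sox2 was at 59.7, 72.1 and 17.7 CPM in CDX2 organoids and at 49.4, 57.1 and 29.0 CPM in HNF4A organoids, against 0 counts in small intestine organoids (adjusted p = 0.00354 and 0.00323). Nkx6-3 was at 130, 72.2 and 65.1 CPM in CDX2 organoids and at 109.5, 66.7 and 67.7 CPM in HNF4A organoids (adjusted p against small intestine organoids 0.000286 and 0.000277). Cldn18 was lower in small intestine organoids by -8.81 ± 0.75 SE against CDX2 lines and by -9.72 ± 0.78 SE against HNF4A lines on the log2 scale (adjusted p = 0.000512 and 0.000315). For these 3 genes every transduced gastric library stood far above both small intestine libraries. Other gastric genes stood much lower in CDX2 lines than in GFP lines. Mean levels in CDX2, HNF4A and GFP organoids were 329, 2113 and 4231 CPM for Muc6, 292.5, 1774 and 3620 CPM for Trf, and 4.94, 59.8 and 159 CPM for C3. Small intestine organoids did not differ from CDX2 lines at C3 by the test (-1.72 ± 1.0 SE, adjusted p = 0.278). Differences between CDX2 or HNF4A lines and GFP lines were not tested here.

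Intestinal genes fell into several patterns. B4galnt2 was at 314.5, 254 and 269 CPM in CDX2 organoids and at 49.0, 42.3 and 63.8 CPM in HNF4A organoids, and small intestine organoids were higher than HNF4A lines (3.15 ± 0.26 SE, adjusted p = 0.000315) but did not pass against CDX2 lines (0.72 ± 0.25 SE, adjusted p = 0.0915). Cps1 ran the other way, at 0, 3.62 and 0.946 CPM in CDX2 organoids and at 332, 449.6 and 43.5 CPM in HNF4A organoids. Small intestine organoids were higher than CDX2 lines at Cps1 (8.25 ± 1.32 SE, adjusted p = 0.00888) and did not pass against HNF4A lines (0.74 ± 0.99 SE, adjusted p = 0.643). For other genes the gap was to both sets of lines. Mttp was higher in small intestine organoids by 2.62 ± 0.33 SE over CDX2 lines and 1.87 ± 0.33 SE over HNF4A lines (adjusted p = 0.00354 and 0.0111), and Anxa13 by 6.12 ± 0.66 and 8.66 ± 0.79 SE (adjusted p = 0.00163 and 0.000512).

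**Figure D4:**
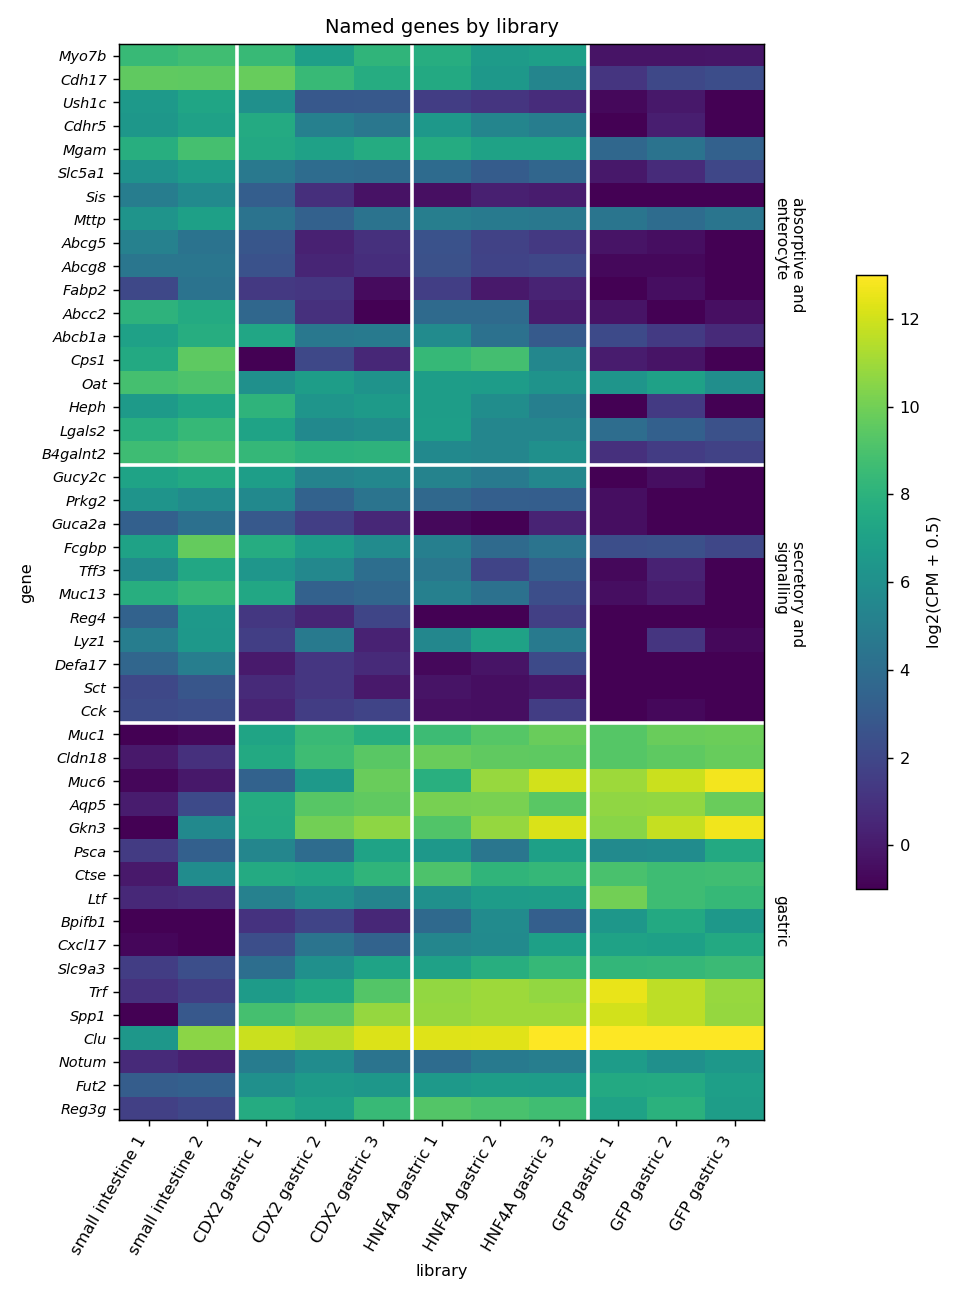
Level of 46 named genes, as log2(CPM + 0.5) on the colour scale, in each library of small intestine, CDX2, HNF4A and GFP gastric organoids; white lines separate groups of libraries and of genes. Most absorptive genes run from bright in small intestine to dark in GFP organoids, Mttp and Oat less so, the gastric genes at the bottom run the opposite way, and Cps1 is bright in small intestine and HNF4A libraries and dark in CDX2 and GFP libraries.

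The 2 small intestine libraries differed from each other more than GFP libraries 1 and 2 did. Of 9355 genes with a mean of at least 10 CPM, library 2 was over 2-fold above library 1 at 516 and over 2-fold below at 99, or 6.57% in all, after adding 0.5 CPM. Between GFP libraries the share was 3.01% (1 and 2), 11.6% (1 and 3) and 9.0% (2 and 3). Goblet genes, Clu, Olfm4 and the gastric genes Ctse and Gkn3 were higher in small intestine library 2, and replication genes in library 1. The lean to library 2 was not particular to goblet genes. It held for 14 of 15 tested pit cell genes, 9 of 9 sugar genes and 26 of 30 xenobiotic genes. Besides the replication genes, lists with fewer genes higher in library 2 were the unfolded protein response (4 of 20) and secreted gastric defence (6 of 13). The part of these differences between libraries in the lists above was not tested beyond the leave-outs given there.

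**Figure D5:**
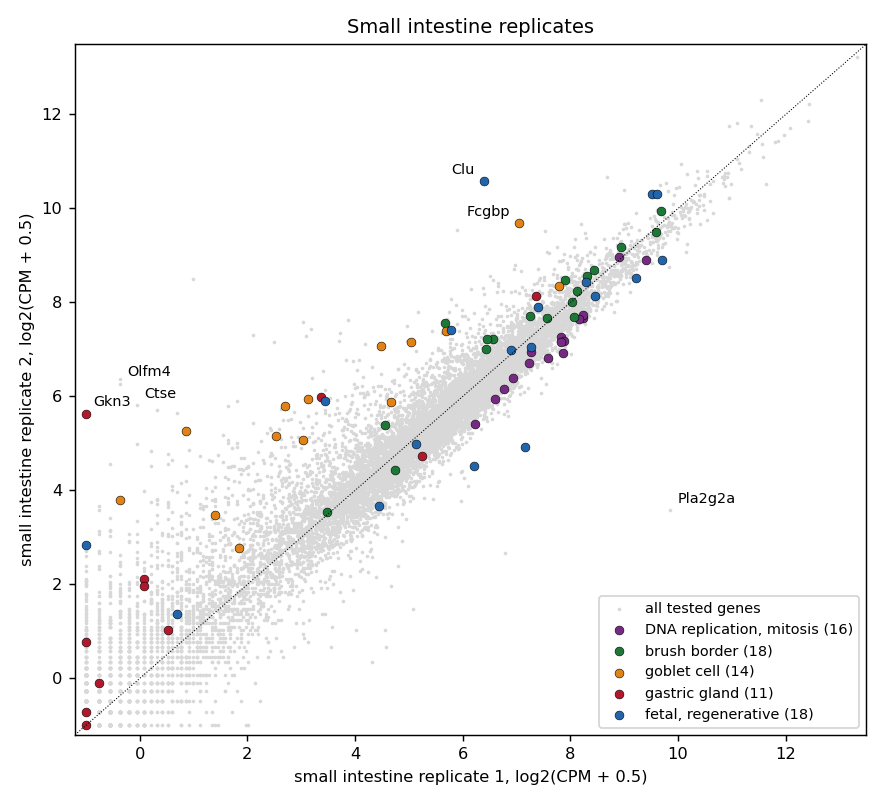
Level of each tested gene in small intestine library 2 (vertical axis) against small intestine library 1 (horizontal axis), as log2(CPM + 0.5), with 5 lists coloured; the dotted line marks equal levels. All 14 goblet genes lie above the line and 15 of 16 replication and mitosis genes below it.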

How the data were processed

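RNA from organoids was made into poly-A libraries and sequenced as 150 bp paired reads, per the labels' protocols. The values are the raw read count per gene symbol and library deposited by the authors, made with STAR as the table's name states. The submitters' processing notes name STAR, Bowtie2, Cell Ranger, mm10 and hg19 without saying which served here. How reads were assigned to genes, with which annotation and whether by strand, was not stated by the labels; reads of overlapping, antisense or paralogous genes may be counted together. The table holds 19733 symbols, of which 4122 had 0 counts in the 5 libraries.

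Counts of 11 libraries (small intestine 2, CDX2 3, HNF4A 3, GFP 3) were fitted together with edgeR 4.0.16 in R 4.3.3, with TMM factors, filterByExpr (minimum count 10, minimum total 15) and a robust two-sided quasi-likelihood F test on group. Benjamini-Hochberg adjustment ran over the 12720 tested genes. A gene read in only 1 group could pass the filter, so list counts and medians include such genes. Each standard error (SE) was taken as the size of the log2 fold change over the square root of its F. Against a group without counts, a fold is given as a bound computed with 3 counts for that group; for 1 to 3 counts, the ratio of CPM has an exact 95% counting interval. Both cover counting error only. Replicates of a group differed well beyond counting error, with a chi-square per degree of freedom of 46.61 between the small intestine libraries and of 28.24 to 79.59 between GFP libraries. On simulated counts for 12493 genes of this comparison, 79.6% of genes with a log2 fold of 3 and 7.07% with a log2 fold of 1 were recovered, with 1 false call. That simulation held far fewer changed genes than were called in the data, so its recovery need not hold for the data.

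The comparison, the 42 gene lists (654 symbols in the table, 4 not) and the alternatives were chosen with earlier results of these data known. Named genes are the 12 with the largest fold per direction (groups not overlapping, at least 20 CPM in the higher group), the 8 with the highest CPM per direction, Cdx1, Cdx2, Hnf4a, Hnf4g, Sox2 and Pdx1, and up to 6 members per list, by smallest p, abundance or a direction against the list. Some genes that meet these rules are not reported here. Other genes were added for their role or after their values were seen: Anks4b, Apoa1, Atoh1, Atp4b, C3, Cckbr, Cftr, Cp, Ctse, Cyp2c55, Epcam, Fabp2, Lgr5, Muc2, Muc5ac, Nags, Vil1, the markers of other cell types, Atp4a, Calml4, Cdhr2, and those of the closing section. DESeq2 1.42.0, limma 3.58.1 (voom), RLE size factors, total counts alone, no filter, a fit of only the 5 libraries compared, the line number as a block and leaving out each library were tried. Upstream sequences came from the RefSeq table of GRCm38.p6, with the start of lowest coordinate where a gene had several. The enhancer-deletion RNA libraries and the chromatin samples were not used here.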

Additional observations from a re-analysis of the deposited data

How the results depend on the processing

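No called gene was called in the opposite direction under any alternative tried. Changes of sign in genes that also lost their call were not counted over all called genes. Of the 3448 calls between small intestine and GFP organoids, DESeq2 shared 3433, RLE size factors 3381, total counts alone 3249, no filter 3138, limma voom 3118 and the fit of only the 5 libraries 2533. DESeq2 called 2168 genes higher and 2325 lower, and limma voom 1852 and 1477, against 1806 and 1642. Leaving out 1 library gave 423 to 1356 genes higher (1093 without GFP library 2) and 409 to 1333 lower, with 423 and 409 without small intestine library 1, where 820 of the 3448 remained; a lone library is then assumed to vary like the other groups. Against CDX2 lines the count of 1437 became 2675 with DESeq2, 70 with only the 5 libraries and 103 to 1401 with 1 library left out (lowest without small intestine library 1). Against HNF4A lines the count of 1585 became 2791 with DESeq2, 559 with only the 5 libraries and 142 to 1423 with 1 library left out. Line number as a replicate block gave 2635 higher and 2331 lower genes against GFP, 2942 against CDX2 lines and 3061 against HNF4A lines. In the labels small intestine and GFP libraries share only a number, and deviations of same-numbered libraries correlated at 0.0229 and 0.118. With 2 small intestine libraries the deviations of library 1 mirror those of library 2, so these 2 values are not independent. Muc6 rose from line 1 to line 3 in GFP (2003, 3771 and 6919 CPM), CDX2 (10.25, 90.3 and 886 CPM) and HNF4A lines (228, 1842 and 4270 CPM). An effect of line number shared by the gastric lines was not tested beyond the block. The cause of the shifts in these counts of called genes was not tested, beyond the fewer libraries in some fits. Of 140 called genes named in the text or by rule, 82 kept call and direction under all 12 alternatives. With limma voom 22 lost their call, among them these that no left-out library ended: Capn6 (adjusted p = 0.128), Cdhr5 (0.0664), Cps1 (0.06), Cyp2c55 (0.0724), Lyz1 (0.0717), Mep1b (0.0531), Muc13 (0.0688), Naip1 (0.0738) and Reg4 (0.0578). Clu, likewise, was lost in the fit of only the 5 libraries (0.0749). The uncalled Epcam changed sign, from 0.5 without small intestine library 1 to -0.06 without library 2, around 0.24. Of 420 list medians under the alternatives 360 moved by less than the spread between replicates. The share depended on the alternative: 20 of the 35 list medians did not stay within that spread without small intestine library 2, and 11 without library 1. In the simulation, which held far fewer changed genes than the 3448 called here, most genes with a log2 fold of 1 were missed. In the data 687 higher and 317 lower called genes differed by under 2-fold, so the recovery in the data is not known.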

Other observations

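Outside the lists, several genes had among the smallest adjusted p-values of the comparison; they were chosen after their values were seen. Hopx, a homeodomain-only protein of crypt cells, was at 291 and 212 CPM in small intestine organoids against 14.4, 21.4 and 13.2 CPM in GFP organoids (log2 fold change 3.94 ± 0.27 SE, edgeR adjusted p = 6.19e-05). Rnf157, a ubiquitin ligase, was at 121 and 94.7 CPM in small intestine organoids against 11.8, 11.4 and 12.5 CPM in GFP organoids (3.18 ± 0.22 SE, adjusted p = 6.19e-05). Qk, an RNA-binding splicing factor, was at 1.40 and 0.768 CPM in small intestine organoids against 62.5, 59.4 and 76.9 CPM in GFP organoids (log2 fold change -5.90 ± 0.37 SE, adjusted p = 6.19e-05). Meis2, a homeobox factor, was at 5.87 and 9.21 CPM in small intestine organoids against 89.5, 96.9 and 82.4 CPM in GFP organoids (-3.57 ± 0.23 SE, adjusted p = 6.19e-05). Vsig2, an immunoglobulin-domain membrane protein, was at 1.21 and 4.06 CPM in small intestine organoids against 316, 349.6 and 249.8 CPM in GFP organoids (-6.87 ± 0.48 SE, adjusted p = 6.19e-05). All 5 remained called whichever library was left out.

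Gene families grouped by the start of their symbols, also after the values were seen, gave further counts. Of 77 tested mitochondrial ribosome genes (Mrpl and Mrps) 25 were higher and 0 lower in small intestine organoids, with a median log2 fold change of 0.75. Of 78 tested cytosolic ribosome genes (Rpl and Rps) 2 were higher and 0 lower, with a median of 0.54. Of 21 nuclear pore genes (Nup) 13 were higher and 1 lower, with a median of 0.87. Of 26 collagen genes 3 were higher and 10 lower, with a median of -2.81, and of 23 Arhgef genes, exchange factors of small GTPases, 0 were higher and 12 lower, with a median of -0.85. Over all tested genes 14.2% were higher and 12.9% lower.

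Pla2g2a, a secreted phospholipase that crypt cells release and that C57BL/6 mice are known to carry in a disrupted form, was at 928.7 and 11.5 CPM in small intestine organoids against 0, 8.82 and 0.857 CPM in GFP organoids. Its log2 fold change was 7.16 ± 1.90 SE (adjusted p = 0.0217), and without small intestine library 1 it was 1.82 (adjusted p = 0.565). The call was also lost without GFP library 1 or 3 (adjusted p = 0.054 and 0.0651). Lypd8, which keeps flagellated bacteria from the epithelium, was at 58.8 and 747 CPM in small intestine organoids against 2.56, 3.61 and 0.367 CPM in GFP organoids (7.5 ± 1.66 SE, adjusted p = 0.011, and 0.0559, with a log2 fold change of 4.72, without small intestine library 2).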
